A study of Homo sapiens with 18 samples.

Results

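The insulin-like growth factor (IGF) genes described here were 10 of the 61487 gene identifiers counted in each library: the ligands IGF1 and IGF2, the receptor IGF1R, the binding proteins IGFBP2 to IGFBP7 and the protease PAPPA. They were taken by gene symbol, and the family was selected on measured values, because IGFBP5 had been seen to be higher in 3 of the SRF fusion lines. The levels of IGFBP5 against the vector, SRF and SRF-PDGFRB libraries are therefore given as a description without a test. Within that limit, IGFBP5 stood at a mean of 96.2 to 243 counts per 1000000 counts of a library (CPM) in the libraries labelled SRF-RELA, SRF-FOXO1 and SRF-ICA1L, beside 4.91 to 18.5 CPM in the other 3 groups. IGFBP3 rose in SRF-ICA1L against pMSCV, SRF and SRF-PDGFRB, by 2.72 to 2.99 on the log2 scale. The edgeR call against pMSCV held in 2 of the 6 fits that each left out 1 library. IGFBP3 was also 1.81 to 2.25 higher in SRF-FOXO1 and SRF-RELA than in pMSCV and SRF, without passing the main edgeR test. DESeq2's Wald test called it in each of these comparisons. With the replicate number added as a block, edgeR called it in SRF-RELA against both controls and in SRF-FOXO1 against pMSCV. The main edgeR test did not separate SRF-ICA1L from either of these fusions. Both ligand genes gave almost no reads.

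The study expressed transgenes in MSC-hTERT, a line of human mesenchymal stem cells immortalized with telomerase, and sequenced polyadenylated RNA. Its 6 groups of 3 libraries carried pMSCV (the name of a retroviral vector, the control), SRF, or SRF joined to FOXO1, ICA1L, PDGFRB or RELA, partners found in fusion genes of myoid soft tissue tumours. All libraries came from 1 cell line, so every group shared its immortalization, and all cultures received serum, FGF-2, ascorbic acid and heparin. The labels do not say whether the libraries numbered 1 to 3 in a group were separate cultures or infections, so the p-values measure the spread between these libraries, which may be technical.

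Depth was 19362319 to 29806771 counts per library, and a count of 0 allowed up to 0.101 to 0.155 CPM (3 counts, counting error only). Mesenchymal markers were high in every library (8 genes, summed 1789 to 2463 CPM, PDGFRB among them). THY1, one of the 8, was at 36.8 to 82.5 CPM in pMSCV, SRF and SRF-PDGFRB and at 97.3 to 239 CPM in the other 3 groups. The edgeR test called it higher than in pMSCV in SRF-FOXO1 (1.35, adjusted p = 0.041) and SRF-ICA1L (1.91, 0.00683). Not all of the 8 moved this way. NT5E was at 392 to 739 CPM in pMSCV, SRF and SRF-PDGFRB and at 250 to 530 CPM in the other 3 groups. VCAM1 was at 41.5 to 54.2 CPM in SRF-FOXO1, beside 84.5 to 109 CPM in SRF and 37.1 to 130 CPM in pMSCV. Haematopoietic markers summed to at most 4.09 CPM (5 genes). SRF counts were 151 to 1122 CPM in the 15 libraries with an SRF construct and 57.3 to 64.4 CPM in the 3 vector libraries. ICA1L and RELA were each higher in their own fusion libraries than in the other 15, PDGFRB overlapped with them (526 to 930 beside 315 to 621 CPM), and FOXO1 was not higher in the libraries labelled SRF-FOXO1 (7.35 to 14.4 CPM beside 6.77 to 18.5). FOXO1 counts thus did not check that label, and results for that group are for the libraries labelled SRF-FOXO1.

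IGF1 and IGF2 are secreted peptides that signal through the receptor tyrosine kinase IGF1R, which drives growth and survival through the PI3K-AKT and MAPK pathways. In tissue fluid they are held by IGF binding proteins, which limit their access to the receptor, extend their life and in part act without them. Proteases such as PAPPA cleave some binding proteins and set bound IGF free. Mesenchymal stromal cells and smooth muscle secrete several of these proteins, and SRF is a transcription factor that binds the CArG box in promoters of muscle, actin and immediate early genes.

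The 250 bases before a start site are shown for 3 binding protein genes. IGFBP5 and IGFBP3 are shown because their counts differed most between groups. For IGFBP2, which has more than 1 start site, the window shown held the only CArG box among the members. Sequences are from RefSeq on GRCh38.p14, 5′ to 3′ on the gene's strand, and capitals mark TTTAAA in IGFBP5, TATATA in IGFBP3 and the CArG box in IGFBP2.
IGFBP5, chr2:216695550-216695799, minus strand: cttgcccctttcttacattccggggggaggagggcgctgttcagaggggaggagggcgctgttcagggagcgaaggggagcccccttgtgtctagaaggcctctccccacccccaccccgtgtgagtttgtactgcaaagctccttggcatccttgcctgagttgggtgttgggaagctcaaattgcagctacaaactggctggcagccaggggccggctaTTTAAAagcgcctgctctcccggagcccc
IGFBP3, chr7:45921273-45921522, minus strand: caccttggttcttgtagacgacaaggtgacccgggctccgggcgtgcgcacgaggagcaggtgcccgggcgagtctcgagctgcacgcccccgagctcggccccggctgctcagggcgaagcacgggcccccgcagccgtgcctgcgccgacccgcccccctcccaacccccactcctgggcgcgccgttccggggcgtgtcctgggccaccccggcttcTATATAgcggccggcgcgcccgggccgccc
IGFBP2, chr2:216632578-216632827, plus strand: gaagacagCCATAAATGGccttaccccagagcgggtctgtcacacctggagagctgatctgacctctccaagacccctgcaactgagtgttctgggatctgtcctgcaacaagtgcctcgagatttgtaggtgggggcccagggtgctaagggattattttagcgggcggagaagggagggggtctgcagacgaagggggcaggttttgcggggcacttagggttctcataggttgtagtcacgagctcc
Windows were on hand for 8 of the 10 members, 11 windows in all, with none for IGF2 and IGFBP7. Both strands were searched for the CArG box and for a TATA-like motif in any of 3 spellings, of which TATAAA reads differently on the other strand. The other two, like the CArG box of IGFBP2, match at one place on both strands and were counted once. TTTAAA began 29 bases before the IGFBP5 start and TATATA 30 bases before the IGFBP3 start, while PAPPA and IGFBP4 had TATAAA 28 and 29 bases before theirs. Among 35116 windows of the same length, 11.3% held TTTAAA, 3.73% TATATA and 10.7% TATAAA. A CArG box was in 1.16% of them (407 windows) and in 1 of the 11 members' windows, the IGFBP2 window shown, 242 bases before its start. The IGFBP2 windows of other start sites, chr2:216633170-216633419 and chr2:216659317-216659566, held no CArG box. The IGFBP2 window shown was picked for display after its match was seen, and a match describes only the letters in the window.

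The ligand genes were at or near 0. IGF2, on chr11:2129112-2149603 (GRCh38, GENCODE 29 gene model), had 0 counts in all 18 libraries. This value is uncertain because 73.7% of its exonic bases lie in other annotated genes on the same strand, INS-IGF2 among them, and counting may drop such reads. INS-IGF2 was also at 0 in every library. IGF1, on chr12:102395874-102481744, had 9 counts in all, spread over 5 libraries, with 4 of them in SRF-PDGFRB replicate 1. Neither gene passed the filter on low counts, and no difference between groups was detectable at this depth.

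IGF1R, the receptor on chr15:98648539-98964530, was present at 39.6 to 83.3 CPM across the 18 libraries. Its group means ran from 59.0 CPM ± 21.8 (SD, n = 3) in SRF-FOXO1 to 71.7 CPM ± 10.6 in SRF-RELA. Each pair of groups overlapped, and the 95% interval of the difference spanned 0 in all 15 pairs. The difference of SRF-RELA from pMSCV was 0.27 on the log2 scale, with a 95% interval of -0.36 to 0.91 (edgeR quasi-likelihood test with Benjamini-Hochberg adjustment, adjusted p = 1).

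**Figure D1:**
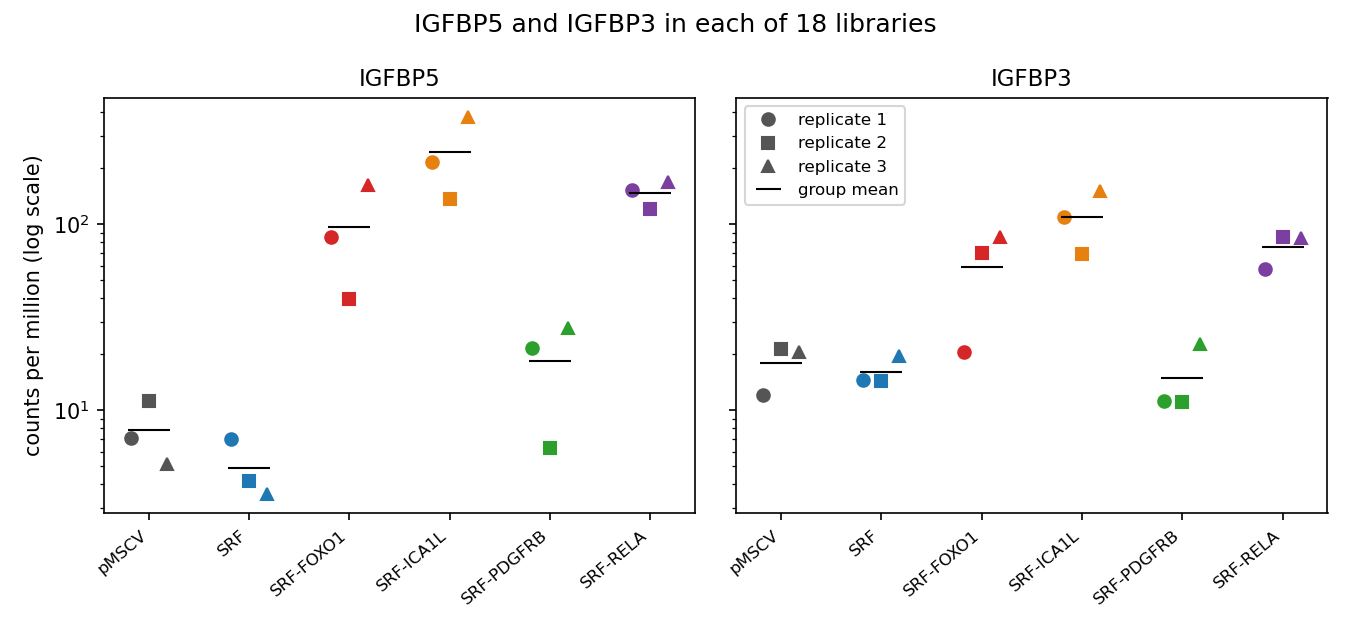
CPM of IGFBP5 and IGFBP3 in each of the 18 libraries, by group on a log axis, with 1 marker shape for each replicate number and a bar at the group mean. IGFBP5 in SRF-RELA, SRF-FOXO1 and SRF-ICA1L lies above all libraries of the other 3 groups, and for IGFBP3 one SRF-FOXO1 library (20.5 CPM) lies among the controls.

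IGFBP5 is a binding protein that also attaches to the extracellular matrix, and its gene lies on chr2:216672105-216695525 in 4 exonic blocks. Replicates 1, 2 and 3 had 7.12, 11.2 and 5.16 CPM in pMSCV and 7.01, 4.17 and 3.54 CPM in SRF. In SRF-PDGFRB they had 21.6, 6.28 and 27.7 CPM. SRF-PDGFRB overlapped with both controls, but within a replicate number it was above SRF in 3 of 3 and above pMSCV in 2 of 3.

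The remaining 3 fusions lay higher, with no overlap. The libraries labelled SRF-FOXO1 had 85.9, 39.5 and 163 CPM, those of SRF-ICA1L 216, 136 and 378 CPM, and those of SRF-RELA 152.5, 121 and 168 CPM. The lowest of these 9 values, SRF-FOXO1 replicate 2, was above the highest of the other 9, SRF-PDGFRB replicate 3. Within each replicate number the order was SRF-ICA1L, then SRF-RELA, then SRF-FOXO1, in 3 of 3 numbers.

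Against pMSCV the fitted log2 differences of IGFBP5 were 3.68 (SE 0.592) for SRF-FOXO1, 5.06 (SE 0.628) for SRF-ICA1L, 4.29 (SE 0.607) for SRF-RELA and 1.23 (SE 0.556) for SRF-PDGFRB. Against SRF they were 4.31, 5.69, 4.92 and 1.86, and against SRF-PDGFRB the first 3 groups differed by 2.45, 3.83 and 3.06. These contrasts share control libraries, and none is tested here because they chose the gene. SRF against pMSCV was no reason for the choice, and there the difference was -0.63 with a 95% interval of -1.88 to 0.61 (edgeR adjusted p = 0.943).

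The 3 fusions with high IGFBP5 were not separated from each other by the test. SRF-FOXO1 was 1.38 lower than SRF-ICA1L on the log2 scale (log2 difference -1.38, 95% interval -2.54 to -0.22), but the p adjusted over all genes was 0.704 in edgeR. The difference was -0.61 between SRF-FOXO1 and SRF-RELA (-1.75 to 0.54, adjusted p = 0.648) and 0.77 between SRF-ICA1L and SRF-RELA (-0.37 to 1.91, adjusted p = 0.999). Adding the replicate number as a block gave edgeR adjusted p values of 0.244, 0.395 and 0.797 for the same pairs, so the call did not change.

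Levels of genes used as markers of other cell types differed between these groups. The summed level of 4 epithelial markers was 50.9 to 91.1 CPM in pMSCV, 51.2 to 143 in SRF and 52.2 to 107 in SRF-PDGFRB, beside 93.5 to 226 in SRF-FOXO1, 98.6 to 232 in SRF-ICA1L and 75.2 to 153 in SRF-RELA. KRT18 reached 191 CPM, and the defining marker EPCAM was at 0 to 0.537 CPM over all libraries. CDH1, the other defining marker, was at 0 to 0.0694 CPM in pMSCV, SRF and SRF-PDGFRB, and at 0.0671 to 1.14 CPM in SRF-FOXO1, 0.292 to 0.396 in SRF-ICA1L and 0.0888 to 0.316 in SRF-RELA. The summed level of 4 endothelial markers was 7.16 to 15.5 CPM in SRF-FOXO1 and 8.06 to 14.3 in SRF-ICA1L, beside 11.4 to 22.3 in pMSCV, 17.2 to 31.4 in SRF, 16.02 to 22.1 in SRF-PDGFRB and 14.1 to 22.1 in SRF-RELA. PECAM1 made up most of this sum, at 4.31 to 27.96 CPM over all libraries. In SRF-ICA1L, VWF was higher (0.436 to 1.46 CPM, beside 0.106 to 0.387 in pMSCV). CDH5 was higher in SRF-ICA1L (0.376 to 1.11 CPM) and SRF-RELA (0.577 to 1.96) than in pMSCV (0.177 to 0.344). VWF in SRF-RELA, and both genes in SRF-FOXO1, overlapped with pMSCV. KDR was lower in every SRF-ICA1L library than in any pMSCV library. The part of these genes, and of THY1, in the IGFBP5 levels was not tested. In bulk RNA, more or fewer cells of a type and more or less RNA per cell cannot be told apart.

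IGFBP5 aside, 6 of the other 9 members passed the filter on low counts and entered the tests: IGF1R, IGFBP3, IGFBP4, IGFBP6, IGFBP7 and PAPPA. The call rule was an adjusted p under 0.05 over all 18544 genes tested. Against pMSCV, 1 of the 6 was called in SRF-ICA1L (IGFBP3, higher), where 0.469% of all genes were called. In the other comparisons with pMSCV edgeR called 0 of the 6, where it called 0.027% of all genes in SRF, 0.928% in SRF-FOXO1, 0.0324% in SRF-PDGFRB and 0.183% in SRF-RELA. At an unadjusted p under 0.05 these 4 comparisons had 0, 4, 0 and 1 of the 6. DESeq2's Wald test, also without the block, called 0 of the 6 in SRF (0.194% of all genes by the same test), IGFBP3 in SRF-FOXO1 (2.89%) and SRF-RELA (0.701%), IGFBP3 and IGFBP7 in SRF-ICA1L (1.76%), and 0 in SRF-PDGFRB (0.108%).

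With the replicate number as a block, edgeR called more members against pMSCV, and more of all genes. IGFBP7 was called higher in SRF (0.243% of all genes called). In SRF-FOXO1 and SRF-ICA1L, IGFBP3 and IGFBP7 were called higher and PAPPA lower (7.03% and 4.66% of all genes). In SRF-RELA, IGFBP3 and IGFBP7 were called higher (0.971%). In SRF-PDGFRB 0 of the 6 were called (0.178%), and 0 had an unadjusted p under 0.05.

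Against SRF, IGFBP3 was again the 1 member called in SRF-ICA1L (0.782% of all genes called). The call was 0 of 6 in SRF-FOXO1 (1.36%), SRF-PDGFRB (0.146%) and SRF-RELA (0.388%) by edgeR. At an unadjusted p under 0.05 each of these 3 had 1 of 6. DESeq2 called IGFBP3 in SRF-FOXO1 (3.88% of all genes by that test), SRF-ICA1L (2.41%) and SRF-RELA (1.15%), and 0 of 6 in SRF-PDGFRB (1.24%). With the block edgeR called IGFBP3 and IGFBP7 higher in SRF-ICA1L (4.73% of all genes), IGFBP6 lower in SRF-PDGFRB (2.34%) and IGFBP3 higher in SRF-RELA (1.73%).

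Between fusions, IGFBP3 was called higher in SRF-ICA1L than in SRF-PDGFRB (0.82% of all genes called). In the other 5 pairs edgeR called 0 of 6 members. The share of all genes called was 0.027% for SRF-FOXO1 against SRF-ICA1L, 0.717% for SRF-FOXO1 against SRF-PDGFRB and 0.00539% for SRF-FOXO1 against SRF-RELA. It was 0.0108% for SRF-ICA1L against SRF-RELA and 0.162% for SRF-PDGFRB against SRF-RELA. The members at an unadjusted p under 0.05 in those 5 pairs numbered 0, 3, 1, 0 and 1. DESeq2 called IGFBP3 and IGFBP6 higher and PAPPA lower than in SRF-PDGFRB in both SRF-FOXO1 (2.56% of all genes by that test) and SRF-ICA1L (2.49%), and IGFBP3 lower in SRF-PDGFRB than in SRF-RELA (0.653%). It called 0 of 6 for SRF-FOXO1 against SRF-ICA1L (0.458%) and SRF-RELA (0.108%), and for SRF-ICA1L against SRF-RELA (0.0216%).

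With the block, SRF-FOXO1 and SRF-ICA1L each had IGFBP3, IGFBP6 and IGFBP7 higher and PAPPA lower than SRF-PDGFRB, where 4.35% and 4.76% of all genes were called. IGFBP3 was lower in SRF-PDGFRB than in SRF-RELA (0.847%). The median log2 difference of the 6 members from pMSCV was between 0.07 (SRF-PDGFRB) and 0.37 (SRF-ICA1L), and that of all genes between -0.01 and 0.01. From SRF it was between -0.24 (SRF-PDGFRB) and 0.16 (SRF-ICA1L), and that of all genes between -0.02 and -0.01.

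**Figure D2:**
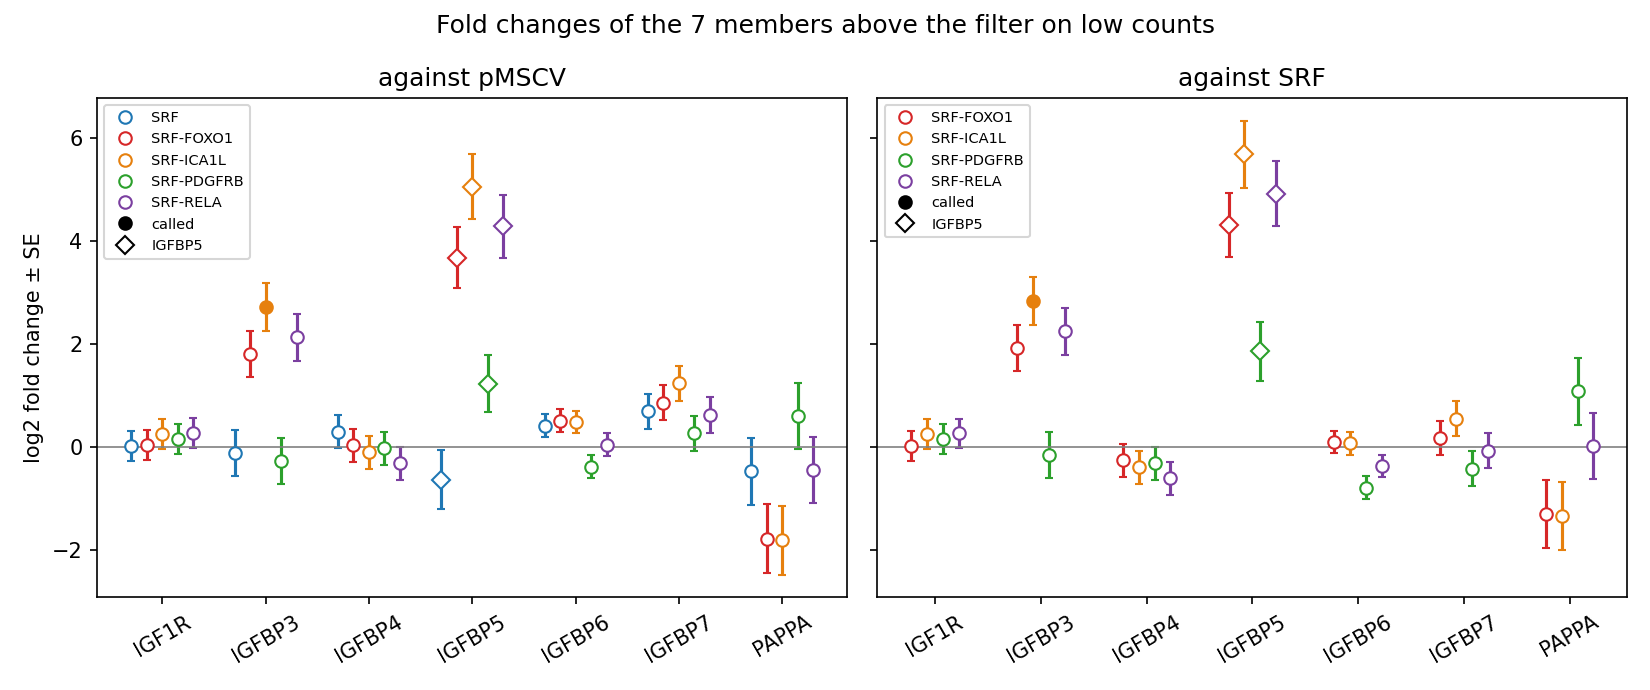
Log2 fold changes (vertical axis) of the 7 members above the filter on low counts, for each construct against pMSCV (left) and SRF (right), from the edgeR fit without the block. Bars are 1 SE, filled symbols passed the test, and diamonds are IGFBP5, whose fusion contrasts are not tested. IGFBP5 and IGFBP3 lie highest in SRF-ICA1L (5.06 and 2.72 against pMSCV), and IGF1R lies near 0 throughout.

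IGFBP3 carries most circulating IGF and is known as a growth-restraining binding protein. Its gene lies on chr7:45912245-45921874 in 7 exonic blocks. It had 12.1, 21.2 and 20.5 CPM in pMSCV, 14.5, 14.5 and 19.5 CPM in SRF, and 11.2, 11.1 and 22.8 CPM in SRF-PDGFRB. Those 3 groups overlapped with each other.

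SRF-ICA1L had 109.6, 69.0 and 151 CPM, and SRF-RELA had 57.2, 84.9 and 84.4 CPM, all above those 9 libraries. The libraries labelled SRF-FOXO1 had 20.5, 70.2 and 85.6 CPM, so replicate 1 fell within the range of those 9 libraries and the other two did not. That library gave 85.9 CPM of IGFBP5, above every pMSCV, SRF and SRF-PDGFRB library.

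In SRF-ICA1L, IGFBP3 rose by 2.72 on the log2 scale against pMSCV (SE 0.466, edgeR adjusted p = 0.0141), higher in 3 of 3 libraries. It rose by 2.83 against SRF (SE 0.468, adjusted p = 0.0103) and by 2.99 against SRF-PDGFRB (SE 0.473, adjusted p = 0.00849). The call against pMSCV was lost without pMSCV replicate 1 (adjusted p = 0.115), 2 (0.0664) or 3 (0.0906) or SRF-ICA1L replicate 3 (0.0537), with no filter (0.059), and with only these 2 groups fitted (0.054). The call against SRF was lost without SRF replicate 1 (0.07) or 2 (0.079), and that against SRF-PDGFRB without its replicate 1 (0.0561) or 2 (0.064). With the block, edgeR's adjusted p values were 0.000773, 0.000591 and 0.000461.

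In SRF-RELA, IGFBP3 was 2.14 higher than in pMSCV (SE 0.457) and 2.25 higher than in SRF, without passing the test (edgeR adjusted p = 0.0977 and 0.0532). The block fit called it in both, with edgeR adjusted p = 0.0081 and 0.00521, and SRF-PDGFRB against SRF-RELA moved from -2.41 (adjusted p = 0.0556) to -2.45 (0.00392). In SRF-FOXO1 the differences were 1.81 from pMSCV (SE 0.453, adjusted p = 0.0801) and 1.92 from SRF (SE 0.455, adjusted p = 0.0538), with 2.08 from SRF-PDGFRB (adjusted p = 0.0539). The block gave adjusted p = 0.0106 against pMSCV and 0.00724 against SRF-PDGFRB. Of the 6 fits that each left out 1 library, 1 called each of these 3 differences, that without SRF-FOXO1 replicate 1, the low library (2.21, 2.33 and 2.48, with edgeR adjusted p = 0.00453, 0.00307 and 0.00298). The other such fits gave values down to 1.48, 1.59 and 1.75, with adjusted p up to 0.345, 0.207 and 0.229.

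IGFBP2 is the binding protein whose gene lies next to IGFBP5, on chr2:216632828-216664436. It had 30 counts in all and did not enter the tests. All 6 pMSCV and SRF libraries were at 0. SRF-ICA1L had 5, 6 and 2 counts and SRF-RELA had 3, 6 and 3, while SRF-FOXO1 had 3, 0 and 0 and SRF-PDGFRB had 1, 0 and 1. Taken over the group, SRF-ICA1L (13 counts) was 4.47-fold and SRF-RELA (12 counts) 4.29-fold above a floor of 3 counts over the 3 pMSCV libraries. Against the same floor in SRF the ratios were 4.55-fold and 4.37-fold. These ratios allow for counting error in the controls but not in the fusions, so they are not lower bounds of the difference.

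**Figure D3:**
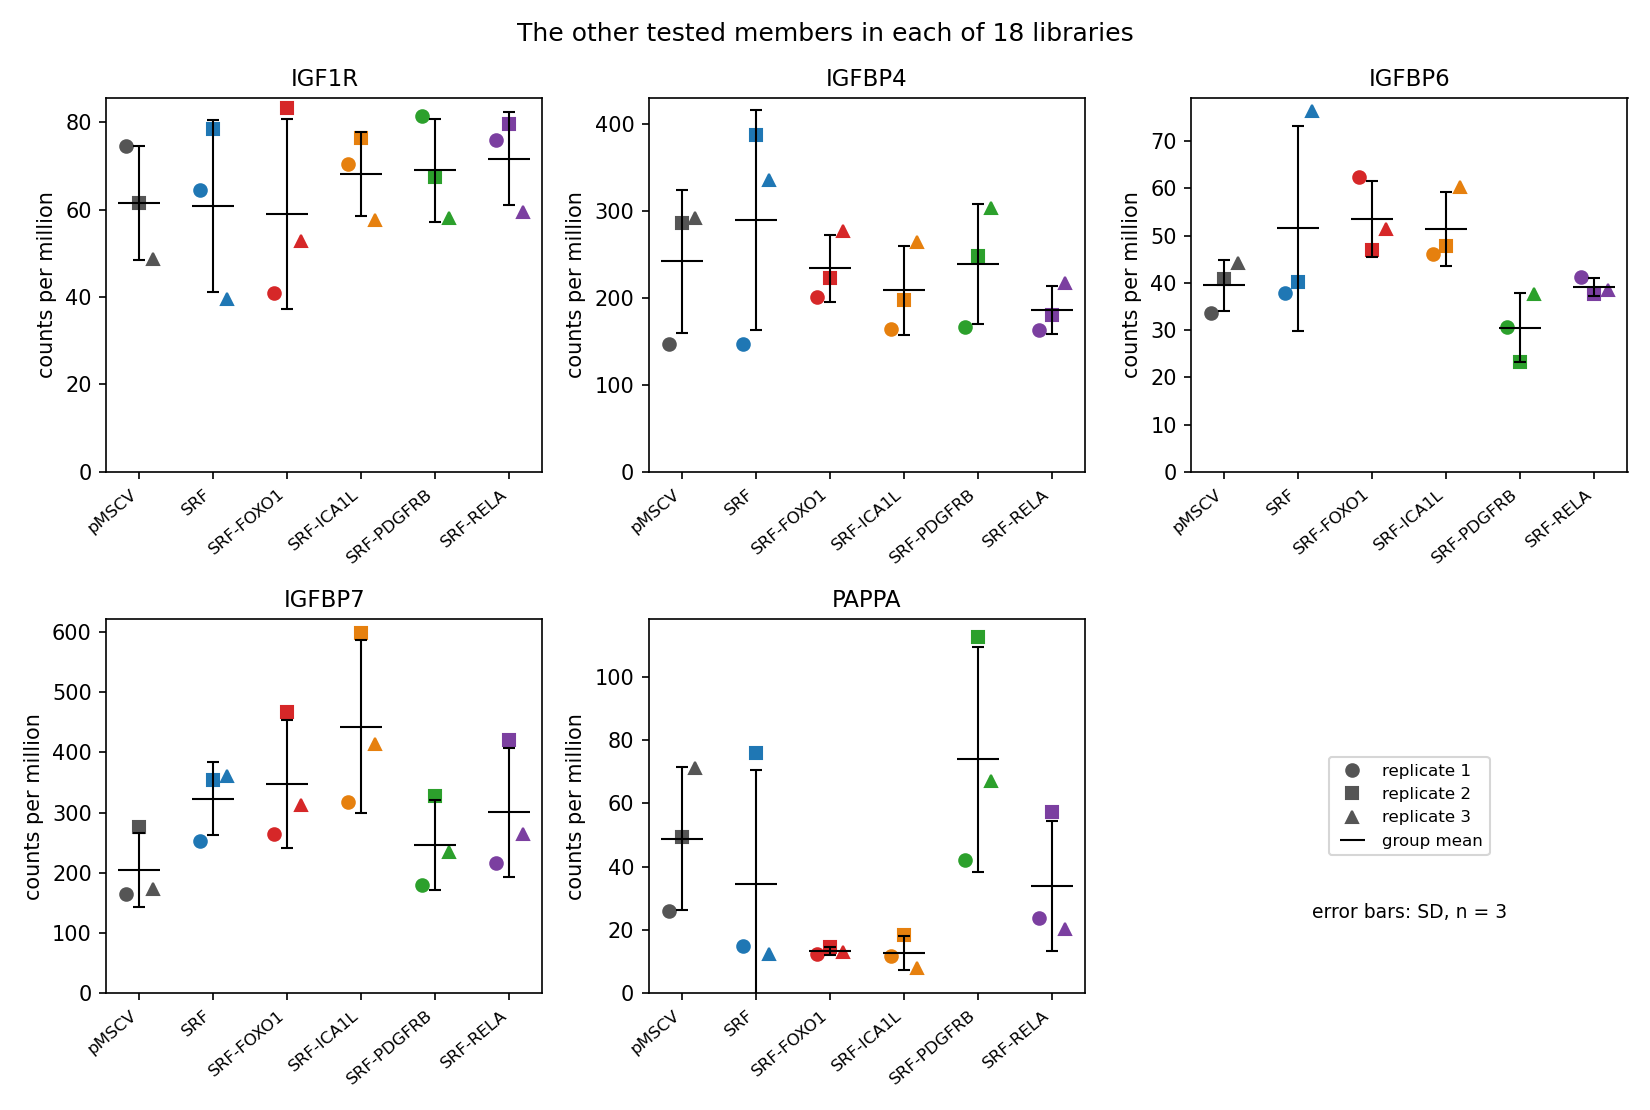
CPM of IGF1R, IGFBP4, IGFBP6, IGFBP7 and PAPPA in each library by group, with the group mean as a bar, error bars of 1 SD (n = 3) and 1 marker shape for each replicate number. PAPPA in SRF-FOXO1 and SRF-ICA1L (7.8 to 18.4 CPM) lies below every pMSCV and SRF-PDGFRB library, and IGF1R overlaps between all groups.

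IGFBP7, a secreted protein of the vessel wall and stroma with weak IGF binding, lies on chr4:57030773-57110385. In pMSCV it had 164, 276 and 173 CPM, while SRF-ICA1L had 317, 599 and 414 CPM, and these 2 groups did not overlap. SRF had 253, 355 and 361 CPM, SRF-FOXO1 264, 468 and 312, SRF-RELA 217, 421 and 264, and SRF-PDGFRB 179, 327 and 234. In these 4 groups the values overlapped with pMSCV.

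Replicate 2 had the highest IGFBP7 value in 5 of the 6 groups, and edgeR's calls for this gene depended on the block. Without it IGFBP7 was 1.24 higher in SRF-ICA1L than in pMSCV (edgeR adjusted p = 0.16), 0.86 in SRF-FOXO1 (0.249), 0.69 in SRF (0.915) and 0.62 in SRF-RELA (adjusted p = 1). With the block all 4 passed, at 1.22 (0.000112), 0.84 (0.00155), 0.73 (0.0308) and 0.59 (0.0421). SRF-ICA1L against SRF moved from 0.55 (edgeR adjusted p = 0.58) to 0.49 (0.0456) with the block. Against SRF-PDGFRB, SRF-ICA1L moved from 0.97 (0.26) to 0.95 (0.000718) and SRF-FOXO1 from 0.59 (0.424) to 0.58 (0.0208). Exons of IGFBP7-AS1 and POLR2B overlap it on the other strand, and IGFBP7-AS1 had 1 to 17 counts per library.

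IGFBP6, a binding protein that prefers IGF2, lies on chr12:53097436-53102345. Its group means ran from 30.6 CPM ± 7.26 (SD, n = 3) in SRF-PDGFRB to 53.5 CPM ± 7.96 in SRF-FOXO1. The SRF-PDGFRB libraries, at 30.7, 23.2 and 37.8 CPM, were below all libraries of SRF-FOXO1 and SRF-ICA1L, and overlapped with pMSCV. They were also below those of SRF, but SRF-PDGFRB replicate 3 was nearly level with SRF replicate 1 (37.75 and 37.79 CPM). The difference of SRF-PDGFRB from SRF was -0.79 (edgeR adjusted p = 0.192), and with the block -0.77 (0.0443). SRF replicate 3 had 76.5 CPM beside 37.8 and 40.3 CPM in the other two SRF libraries, and without it the difference was -0.40 (0.464, no block). SRF-FOXO1 was 0.89 higher than SRF-PDGFRB (edgeR adjusted p = 0.0786, with the block 0.92 and 0.0131) and SRF-ICA1L 0.87 (0.0871, with the block 0.88 and 0.014).

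IGFBP4, the main substrate of PAPPA, lies on chr17:40443461-40457731 and was called in no comparison, with or without the block. Its group means were between 187 CPM ± 27.5 (SD, n = 3) in SRF-RELA and 290 CPM ± 127 in SRF. That pair gave the largest difference, -0.61 with a 95% interval of -1.31 to 0.09 (edgeR adjusted p = 0.56). In every group replicate 1 had the lowest IGFBP4 value, with medians over the 6 groups of 163, 236 and 285 CPM for replicates 1, 2 and 3.

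PAPPA, the metalloproteinase that cleaves IGFBP4 and IGFBP5, lies on chr9:116153804-116402322. It had 26.0, 49.4 and 71.1 CPM in pMSCV and 42.2, 113 and 67.1 CPM in SRF-PDGFRB. The libraries labelled SRF-FOXO1 had 12.3, 14.6 and 13.1 CPM and those of SRF-ICA1L 11.7, 18.4 and 7.8 CPM, below both of those groups without overlap. SRF had 14.9, 76.0 and 12.3 CPM, and SRF-RELA had 23.7, 57.4 and 20.3, so replicate 2 stood apart in both.

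Without the block edgeR called PAPPA in no comparison, and DESeq2 called it lower in SRF-FOXO1 and in SRF-ICA1L than in SRF-PDGFRB. It was 1.78 lower in SRF-FOXO1 than in pMSCV (log2 difference -1.78, edgeR adjusted p = 0.23) and in SRF-ICA1L the difference was -1.81 (0.322). With the block both passed, at -1.80 (0.039) and -1.92 (0.0383). Against SRF-PDGFRB the differences were -2.39 for SRF-FOXO1 and -2.42 for SRF-ICA1L (adjusted p = 0.135 for each), and with the block -2.25 (0.0195) and -2.38 (0.0132). Against SRF, PAPPA was not called in either fusion. The differences were -1.30 for SRF-FOXO1 (edgeR adjusted p = 0.393) and -1.34 for SRF-ICA1L (0.453, with the block -1.08 and 0.234). Without SRF replicate 2, the high SRF library, they were 0.005 and -0.028 (no block).

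Set per kilobase of exon, so that genes can be compared, IGFBP4 and IGFBP7 made up most of the binding protein signal in all 6 groups. The sum over IGFBP2 to IGFBP7 was 251 CPM per kilobase ± 65.2 (SD, n = 3) in pMSCV and 424.5 ± 81.4 in SRF-ICA1L, with the other means between. The IGFBP5 share of this sum was 0.492% in pMSCV, 0.258% in SRF and 1.16% in SRF-PDGFRB. It was 4.31% in SRF-FOXO1, 9.02% in SRF-ICA1L and 7.64% in SRF-RELA. The IGFBP3 share was 1.56%, 1.08% and 1.24% in the first 3 groups and 3.48%, 5.83% and 5.34% in the others. IGFBP4 went from 43.4% in pMSCV to 22.4% in SRF-ICA1L, and IGFBP7 was at 42.5% to 53.6% throughout. Shares of one sum are not independent of each other, and they were not tested.

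**Figure D4:**
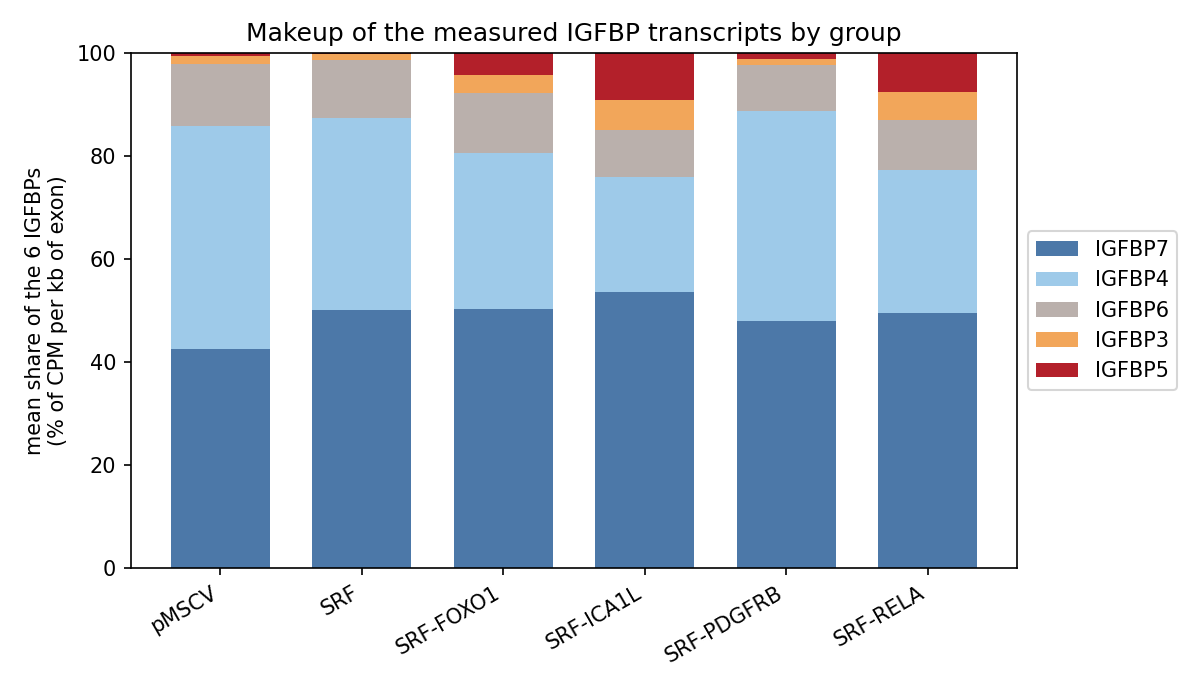
Make-up of the binding protein signal, as the mean percent of the summed CPM per kilobase of exon over IGFBP2 to IGFBP7 in each group of 3 libraries. IGFBP4 and IGFBP7 fill most of each bar, and the IGFBP5 share goes from 0.492% in pMSCV to 9.02% in SRF-ICA1L.

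Of 52 other genes of the IGF pathway, in 7 lists, 44 were tested. Without the block TIMP3 was the only one that edgeR called in a comparison with pMSCV or SRF. DESeq2 also called STC2 lower in SRF-ICA1L against both controls, SOCS1 higher in SRF-PDGFRB against pMSCV, CCN5 lower in SRF-PDGFRB, SRF-RELA and SRF-FOXO1 against SRF, and CRIM1 higher in SRF-FOXO1 against SRF. TIMP3, a matrix-bound inhibitor of metalloproteinases, had means of 851 CPM ± 277 (SD, n = 3) in pMSCV and 752 CPM ± 223 in SRF. The SRF-FOXO1 libraries had 2169 CPM ± 287 and those of SRF-ICA1L 2881 CPM ± 269, with 2689 CPM ± 586 in SRF-RELA, and none of these overlapped with the controls. In SRF-PDGFRB it had 1236 CPM ± 467.

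TIMP3 rose against pMSCV by 1.44 in SRF-FOXO1 (edgeR adjusted p = 0.0298), 1.87 in SRF-ICA1L (0.00683) and 1.72 in SRF-RELA (0.0248). Against SRF it rose by 1.58 (0.0147), 2.01 (0.0032) and 1.86 (0.00947). The SRF-ICA1L call against SRF was kept in all 6 fits that left out 1 library. Against pMSCV the calls were lost without pMSCV replicate 1 or 3, for SRF-FOXO1 also without its replicate 2 or 3 and for SRF-RELA also without its replicate 2 or 3, with adjusted p up to 0.205 (SRF-FOXO1), 0.066 (SRF-ICA1L) and 0.225 (SRF-RELA). Against SRF the SRF-FOXO1 and SRF-RELA calls were lost without SRF replicate 1 or 2 or their own replicate 2, with adjusted p up to 0.0805 and 0.0835. With only the 2 compared groups fitted, the SRF-FOXO1 and SRF-RELA calls were lost against pMSCV (0.147 and 0.2) and against SRF (0.161 and 0.118). With no filter the calls were lost in SRF-FOXO1 against pMSCV (0.097) and SRF (0.0533) and in SRF-RELA against pMSCV (0.0892), and the last was also lost with at least 10 counts in every library (0.0635). The calls held with the block in the comparisons to which it applied.

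In the other comparisons with a control edgeR called 0 of the 44 without the block. SRF against pMSCV had 4 at an unadjusted p under 0.05, SRF-PDGFRB against pMSCV 3 and SRF-PDGFRB against SRF 12, and DESeq2 called 0, 1 and 1. With the block edgeR called 3 of the 44 in SRF-PDGFRB against pMSCV (0.178% of all genes), 1 in SRF-RELA (0.971%) and 5 each in SRF-ICA1L (4.66%) and SRF-FOXO1 (7.03%). Against SRF it called 5 in SRF-PDGFRB (2.34% of all genes), 2 in SRF-RELA (1.73%) and 4 in SRF-ICA1L (4.73%).

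Among the other proteases of binding proteins and their inhibitors, STC2, a glycoprotein that blocks PAPPA, fell in SRF-ICA1L with the block by 1.32 against pMSCV (edgeR adjusted p = 0.00135) and by 1.21 against SRF (0.00245). It had 38.7, 43.6 and 46.8 CPM there, below every library of pMSCV (71.8, 105 and 197) and SRF (76.6, 106 and 145). HTRA1, a serine protease, fell with the block in SRF-PDGFRB by 0.63 against pMSCV (0.0119) and by 0.44 against SRF (0.0299). CTSD, a lysosomal protease named after its values were seen, fell with the block by 0.39 in SRF-ICA1L and by 0.46 in SRF-PDGFRB against SRF (0.0481 and 0.0347). STC1, the other PAPPA-blocking stanniocalcin, passed in no comparison with a control, with a mean of 60.1 CPM in pMSCV, and of 15.3 CPM for the SRF-ICA1L libraries.

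Of the secreted proteins with an IGFBP-like domain, CCN2 (connective tissue growth factor) rose with the block by 1.15 in SRF-FOXO1 against pMSCV (edgeR adjusted p = 0.0436). CCN5 fell with the block against SRF by 3.12 in SRF-PDGFRB (0.00141) and by 2.13 in SRF-RELA (0.00616). Its SRF libraries had 32.7, 15.3 and 15.1 CPM, above all pMSCV libraries (11.5, 4.51 and 3.84), though SRF against pMSCV was not called. KAZALD1, named after its values were seen, rose with the block by 0.35 in SRF-ICA1L against pMSCV (0.0424).

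Inside the cell, the feedback regulators SOCS2 and SOCS1, which restrain cytokine and growth hormone signalling, rose with the block in SRF-PDGFRB. The log2 differences were 2.11 and 1.70 against pMSCV (edgeR adjusted p = 0.00176 and 0.0028) and 2.46 and 1.17 against SRF (0.000676 and 0.0116). SOCS2 had 17.7, 36.5 and 63.3 CPM in SRF-PDGFRB and at most 14.3 CPM in any other library. IGF2BP3, a protein that binds IGF2 messenger RNA, fell with the block by 0.83 in SRF-FOXO1 (0.00575) and by 0.90 in SRF-ICA1L (0.00446) against pMSCV, and by 0.61 in SRF-ICA1L against SRF (0.0388). The insulin receptor INSR fell with the block by 0.90 in SRF-ICA1L against pMSCV (0.0476) at a low level (0.971 to 3.7 CPM over all libraries). The ubiquitin ligase NEDD4 and the PI3K subunit PIK3R1 fell with the block by 0.49 and 0.52 in SRF-FOXO1 against pMSCV (0.0386 and 0.0321).

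**Figure D5:**
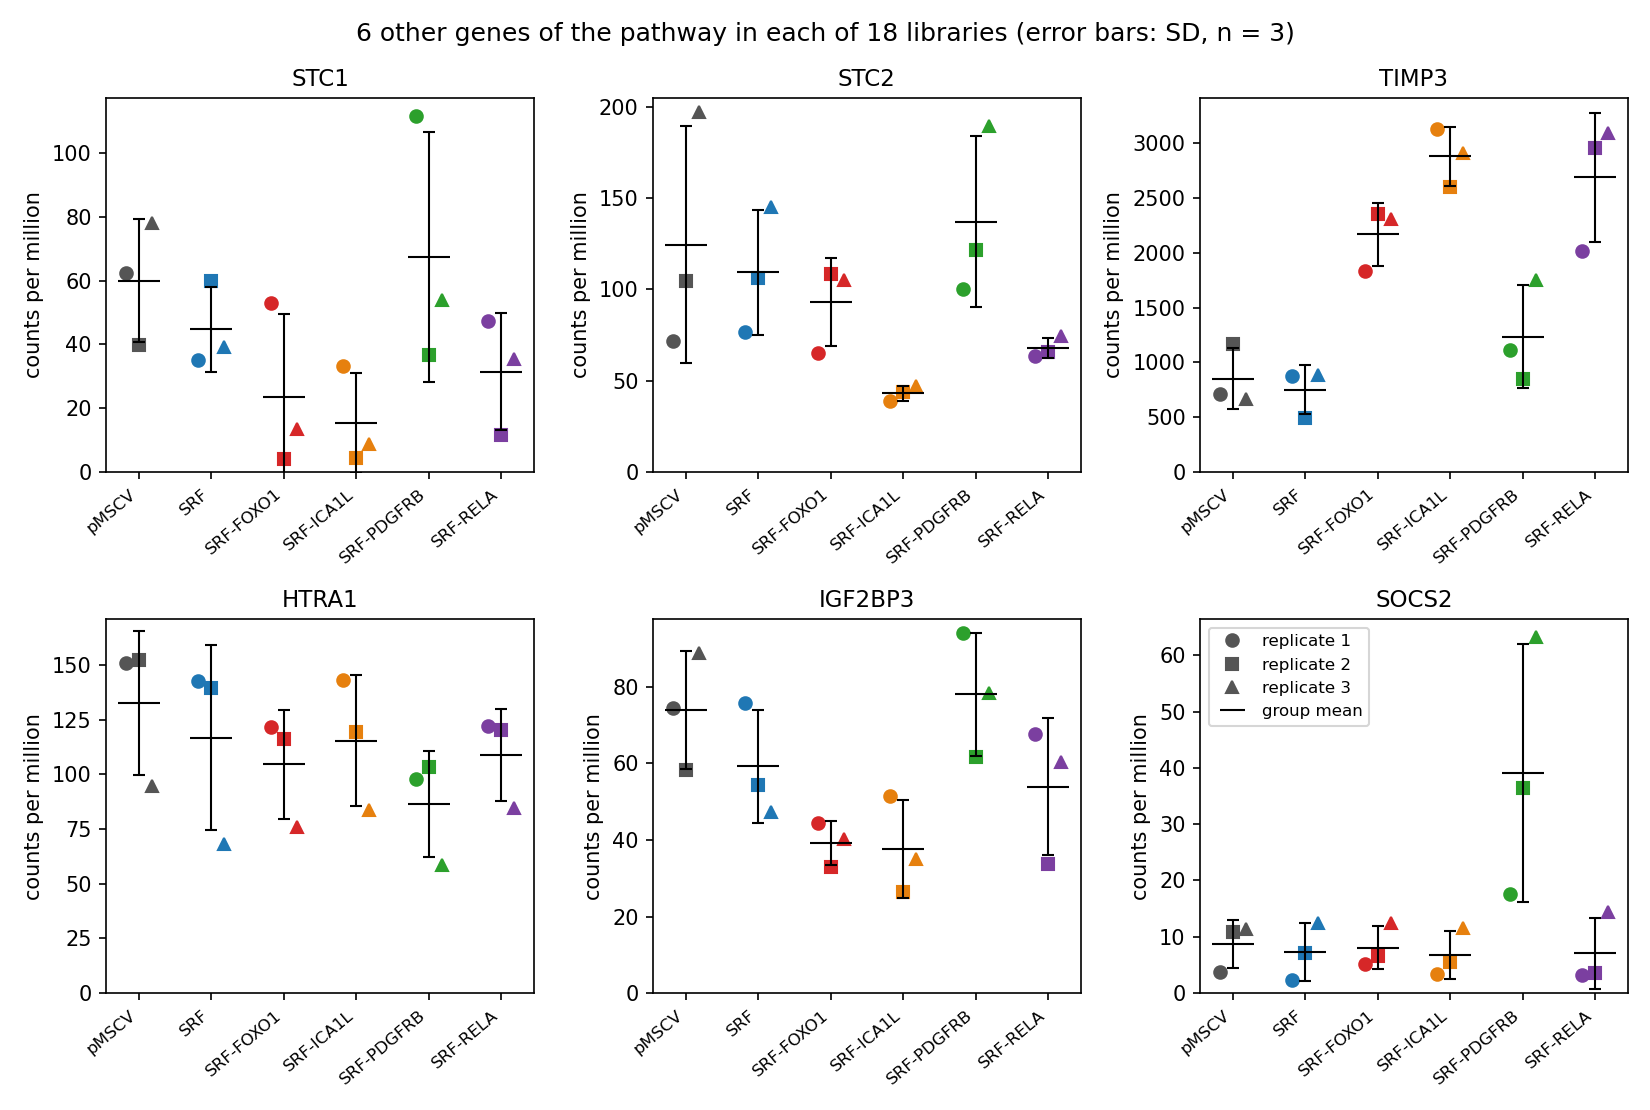
CPM of STC1, STC2, TIMP3, HTRA1, IGF2BP3 and SOCS2 in each library by group, with the group mean as a bar and error bars of 1 SD (n = 3). TIMP3 is at 1839 CPM or more in every SRF-RELA, SRF-FOXO1 and SRF-ICA1L library, and SOCS2 is highest in SRF-PDGFRB (17.7 to 63.3 CPM).

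By plain correlation, TIMP3 was also the gene whose pattern was most like that of IGFBP5. Over the 18 libraries, which share the 6 groups and the replicate numbers, Pearson's r of log2 CPM with IGFBP5 was 0.94 for TIMP3, 0.92 for DIRC3-AS1, 0.92 for CDH3 (P-cadherin), 0.91 for TMEM130 and 0.91 for CMKLR1 (the chemerin receptor). CDH3 and CMKLR1 were at most 2.13 CPM on average in pMSCV, SRF and SRF-PDGFRB, and at 11.8 to 81.1 CPM in the 3 groups with high IGFBP5. Among the members IGFBP3 was the most alike, with r = 0.88 and rank 11 of 18543 genes, and the lowest was PAPPA with r = -0.52. IGFBP7 had r = 0.38, IGFBP6 0.33, IGF1R 0.19 and IGFBP4 -0.27. With the mean of each replicate number taken out, LPCAT1 came first (r = 0.96) and TIMP3 second (0.95), and 4 of the 5 genes above were among the first 5. IGFBP3 then had r = 0.91 and rank 21, IGFBP7 0.61, IGF1R 0.37, IGFBP6 0.31, IGFBP4 -0.42 and PAPPA -0.52. These correlations describe the libraries and carry no test.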

How the data were processed

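Polyadenylated RNA of 18 libraries (6 groups of 3) was sequenced from TruSeq Stranded mRNA libraries on a NovaSeq sequencer, per the labels' protocols. The authors deposited raw counts for 61487 identifiers, whole numbers with no normalization, per the file headers and values. The submitters' processing notes name FastQC 0.11.8, Trimmomatic 0.39, HISAT2, featureCounts, Subread 2.0.3 and GRCh38. The annotation release and the strand setting are not given in the sources used here, so reads of genes that overlap may be split, dropped or counted on either strand.

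Groups were taken from the labels. Levels are CPM, a count divided by the library's total and scaled by 1000000, and for comparison between genes CPM per kilobase of GENCODE 29 exon. Tests used edgeR 4.0.16 (limma 3.58.1, R 4.3.3): genes passing filterByExpr with a minimum count of 10 (18544), TMM scaling, 1 coefficient per group over all 18 libraries (12 residual degrees of freedom), the robust quasi-likelihood F test, two-sided, and Benjamini-Hochberg adjustment over all tested genes in each of 15 comparisons. SE is the log2 fold change over the root of F, and 95% intervals use the t distribution. Testing was checked on simulated data with known changes. Those counts had no replicate effect and took their spread from a fit with the replicate number. The check therefore does not show how many true changes the main test finds in these libraries.

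The second fit added the replicate number as a block (10 residual degrees of freedom). The labels do not say what a number shares. In the values, deviations from the group means correlated above 0.1 in 44 of 45 same-numbered pairs of libraries (median 0.375). The exception was SRF and SRF-FOXO1 replicate 1 (0.0875). The 90 differently numbered pairs had a median of -0.18. Deviations sum to 0 within a group, so this negative median follows from the positive one and is no separate evidence. On the same-numbered pairs alone, numbers were taken to pair libraries in all comparisons but SRF-FOXO1 against SRF. The biological coefficient of variation was 0.225 without the block and 0.15 with it.

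Alternatives were DESeq2 1.42.0 size factors or its Wald test, total count scaling, no filter, at least 10 counts in every library, only the 2 compared groups, an added fold threshold of 1 on the log2 scale, the block, and each library left out in turn. Members and gene lists were chosen with earlier results of these data known. The rule for naming pathway genes was up to 3 per list by smallest adjusted p among those called against pMSCV or SRF. The 5 genes most like IGFBP5 by correlation were added. The text also goes beyond this rule. It names CTSD and KAZALD1 after their values were seen, STC1 although it was not called, and the genes that DESeq2 called. Values that chose IGFBP5 were not tested.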

Additional observations from a re-analysis of the deposited data

Results flagged for a closer look

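The effect of SRF-ICA1L differed from that of SRF-PDGFRB, by the edgeR test of the difference between these 2 fusions, for 1 member and 2 other pathway genes. IGFBP3 was 2.99 higher in SRF-ICA1L on the log2 scale (SE 0.473, adjusted p = 0.00849), in 3 of 3 library pairs, and this call was lost in 2 of the 6 fits that left out 1 library, with adjusted p up to 0.064. STC2 had a difference of -1.55 (SE 0.335, adjusted p = 0.0438), and this call was lost in all 6 fits that left out 1 library, with adjusted p up to 0.206, and in 3 of 7 other settings: no filter (0.138), at least 10 counts in every library (0.0608) and only the 2 groups (0.0521). TIMP3 was 1.34 higher (SE 0.29, adjusted p = 0.0415), and this call was lost in 5 of the 6 such fits, with adjusted p up to 0.183, and in 4 of 7 other settings: these same 3 (0.124, 0.0608 and 0.079) and total count scaling (0.0558). With the replicate block edgeR gave adjusted p = 0.000461 for IGFBP3, 0.000616 for STC2 and 0.0135 for TIMP3.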

How the results depend on the processing

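The counts below are of the 6 tested members, then of the 44 pathway genes, called in either direction. A comparison not listed under a setting kept the count of the edgeR fit without the block, though the gene called can differ. With the replicate block, members called were 1 in SRF, 3 in SRF-FOXO1, 3 in SRF-ICA1L and 2 in SRF-RELA against pMSCV, and against SRF they were 2 in SRF-ICA1L and 1 each in SRF-PDGFRB, SRF-RELA and SRF-FOXO1. Against SRF-PDGFRB they were 4 in SRF-FOXO1, 4 in SRF-ICA1L and 1 in SRF-RELA. For SRF-FOXO1 against SRF, where the numbers may not pair the libraries, the member was IGFBP3 (1.81, edgeR adjusted p = 0.00828). The block changed no other member count. Pathway genes called with the block were 5, 5 and 3 in SRF-FOXO1, SRF-ICA1L and SRF-PDGFRB against pMSCV, and against SRF 5 each in SRF-PDGFRB and SRF-FOXO1, 4 in SRF-ICA1L and 2 in SRF-RELA.

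Shares of all genes stand with the members' counts above for DESeq2, and for the block in the comparisons whose calls are listed there. For SRF-FOXO1 against SRF with the block no share is given, so its counts have no such measure beside them. The same holds for the other settings below and for the fits that left out 1 library. DESeq2's Wald test called 1 member in SRF-FOXO1, 2 in SRF-ICA1L and 1 in SRF-RELA against pMSCV, 1 in SRF-FOXO1 and 1 in SRF-RELA against SRF, and against SRF-PDGFRB 3 in SRF-FOXO1, 3 in SRF-ICA1L and 1 in SRF-RELA. It called 2 pathway genes in SRF-ICA1L and 1 in SRF-PDGFRB against pMSCV, and against SRF 1 in SRF-PDGFRB, 2 in SRF-RELA, 3 in SRF-FOXO1 and 2 in SRF-ICA1L. With only the 2 compared groups, SRF-ICA1L against pMSCV had 0 members and SRF-RELA against SRF 1, and pathway genes were 0 in SRF-FOXO1 and SRF-RELA against either control. With no filter SRF-ICA1L against pMSCV had 0 members, and SRF-RELA against pMSCV 0 pathway genes. In SRF-FOXO1 against pMSCV and SRF the pathway count stayed the same with no filter, though TIMP3 was lost (edgeR adjusted p = 0.097 and 0.0533). At least 10 counts in every library gave 1 member in SRF-FOXO1 against SRF and 0 pathway genes in SRF-RELA against pMSCV. The cause of these changes was not tested.

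Leaving out 1 library at a time, members called ran from 0 to 1 for SRF-FOXO1 and SRF-ICA1L against each of pMSCV, SRF and SRF-PDGFRB. Pathway genes ran from 0 to 2 in SRF-FOXO1, 0 to 1 in SRF-ICA1L and 0 to 1 in SRF-RELA against pMSCV, and from 0 to 4 in SRF-FOXO1 and 0 to 1 in SRF-RELA against SRF. The log2 difference of IGFBP5 from pMSCV ran from 3.08 to 4.04 in SRF-FOXO1, 4.62 to 5.39 in SRF-ICA1L, 0.85 to 1.64 in SRF-PDGFRB and 4.05 to 4.62 in SRF-RELA. Of 90 pairs of a tested member and a comparison, 30 changed sign under some alternative, and 0 of these were called in any fit. Depth limits IGF1, IGF2 and IGFBP2, whose counts were too low to test.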

Other observations

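Around IGFBP5, 60 annotated genes lay within 1500000 bases of its start and 18 were tested. Against pMSCV, without the block, edgeR called 1 of the 18 in SRF-FOXO1 (0.928% of all genes), 2 in SRF-ICA1L (0.469%) and 2 in SRF-RELA (0.183%). It called 0 in SRF (0.027%) and SRF-PDGFRB (0.0324%). DIRC3-AS1, a non-coding RNA gene on chr2:217282739-217336120 chosen here after its values were seen, was called higher against pMSCV in SRF-FOXO1 (2.26, edgeR adjusted p = 0.0187), SRF-ICA1L (2.54, 0.00683) and SRF-RELA (2.31, 0.0277). Its levels were low, with group means from 0.624 CPM in pMSCV to 3.34 CPM in SRF-ICA1L. It overlaps DIRC3 on the other strand, so the reads of the pair cannot be told apart without the strand setting. LINC01614, also chosen after its values were seen, was called higher in SRF-ICA1L and SRF-RELA against pMSCV. Against SRF, edgeR called DIRC3-AS1 and MARCHF4 higher in SRF-FOXO1 (1.36% of all genes). It called DIRC3-AS1 and LINC01614 higher in SRF-ICA1L (0.782%) and LINC01614 in SRF-RELA (0.388%). There DIRC3-AS1 was not called (1.78, edgeR adjusted p = 0.0641).

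IGFBPL1, an IGFBP-like gene below the filter, had 65 counts in all, 27 of them in SRF-FOXO1 replicate 1. IGFALS, the circulating acid-labile subunit, had 44 counts and IGFBP1 had 1.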
